A study of Gallus gallus with 16 samples.

Results

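The regions described here are the peaks of 2 histone marks on the sex chromosome Z of the chick (Gallus gallus), listed for lens fiber cells after 2 h in low or in normal oxygen. They are all unique intervals that the deposited lists place on chromosome Z, 4806 of 108520 peaks in all. They lie between 162 and 23464 bp wide and are annotated to 677 genes. Each mark has 1 list per oxygen level. H3K27ac had 2198 Z peaks in the hypoxia list and 463 in the normoxia list, and H3K4me3 had 1128 in the hypoxia list and 1017 in the normoxia list. Coordinates refer to galGal6 and are printed 1-based.

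The marks were mapped by CUT&RUN, which uses an antibody-tethered nuclease to release the chromatin that carries a mark. Whole White Leghorn lenses of embryonic day 13 were cultured in 1% oxygen (hypoxia) or 21% oxygen (normoxia) for 2 h, and the fiber cell portion was dissected away from the epithelium, with 10 to 15 lenses pooled per library. Of 16 libraries, 2 per oxygen level were for H3K27ac and 3 per oxygen level for H3K4me3, and 3 per oxygen level used the nonspecific antibody IgG, which was not analysed here. The extraction text mentions 0 h and 2 h of hypoxia, and the labels leave it unclear how long the normoxia lenses were in culture. The lists hold no value per library, no signal and no p-value, so replicates cannot be compared for any difference below, and read depth is unknown.

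In birds the male has 2 Z chromosomes and the female has 1 Z and 1 W, so Z genes differ in copy number between the sexes. Dosage compensation of the Z is incomplete and works gene by gene, unlike the silencing of a whole X chromosome in female mammals. H3K27ac, an acetyl group on histone H3, is found at promoters and enhancers in use and can change within hours, whereas H3K4me3 marks the starts of active or poised genes and is usually the more stable of the pair. The lens fiber cell lies far from any blood supply, in low oxygen, and loses its nucleus as it matures.

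The Z excess of H3K27ac peaks in hypoxia over normoxia was wider than that of any of the 28 autosomes with at least 500 peaks. The ratio of hypoxia to normoxia peaks was 4.75 on Z (95% Wilson interval 4.29 to 5.25). It was 3.23 on chromosome 3, 3.05 on chromosome 4 and 3.23 on chromosome 5, and over all 28 it ran between 1.61 (chromosome 25) and 3.29 (chromosome 2), with a median of 2.69. By covered length the Z ratio was 5.86, against at most 3.79 on an autosome. Its size depends on the length of the lists. The hypoxia list was cut to its widest peaks, to equal the whole normoxia list in number over the genome. A fall in the ratio is built into such a cut. The Z ratio was then 1.5, which was 1.42 times that of chromosomes 3, 4 and 5. Intervals in the text cover counting error alone and say nothing of how lenses vary, and neighbouring peaks are not independent. H3K4me3 showed no such gap. Its Z ratio was 1.11 (1.02 to 1.21), against 1.06, 1.13 and 1.17 on chromosomes 3, 4 and 5, and 19 of the 28 autosomes lay above Z.

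**Figure D1:**
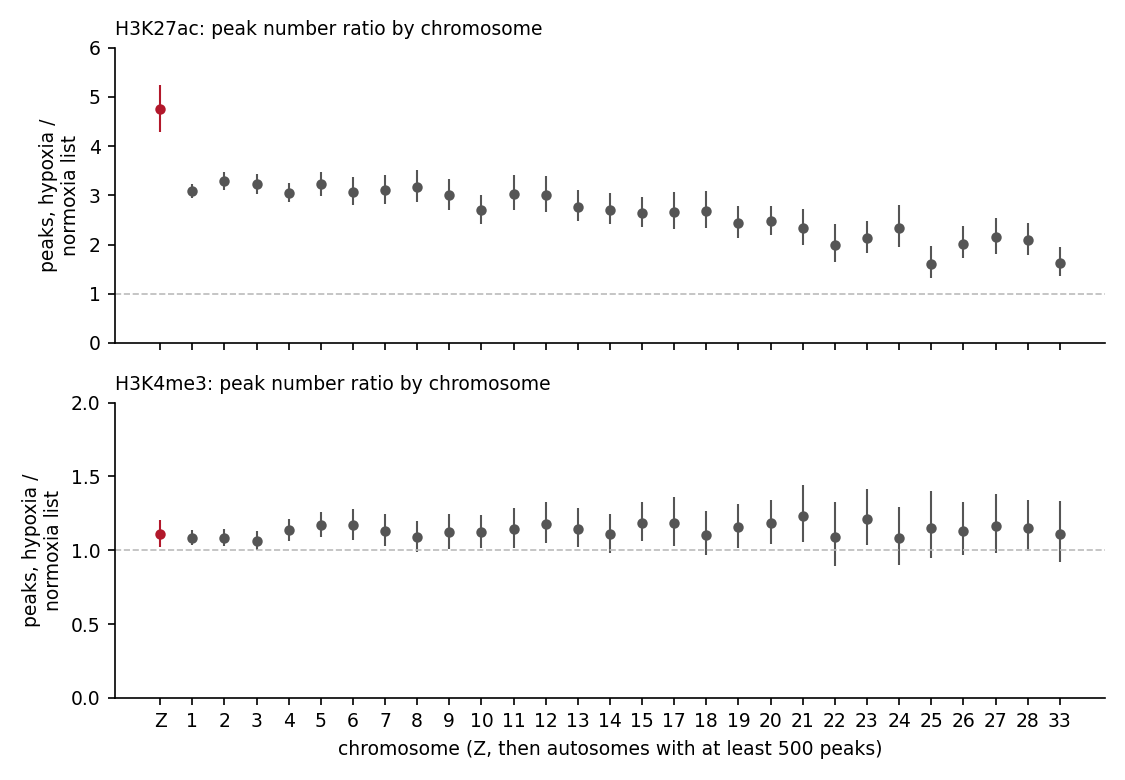
Number of peaks in the hypoxia list divided by the number in the normoxia list for Z (red) and each autosome with at least 500 peaks (grey), for H3K27ac above and H3K4me3 below; bars are 95% counting intervals and the dashed line marks equal numbers. Z stands at 4.75 for H3K27ac, above the highest autosome at 3.29, and among the autosomes at 1.11 for H3K4me3.

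The Z was sparse in peaks of every list per Mb, and per gene the H3K27ac normoxia list alone of the 4 stood below all 28 autosomes. Per Mb, Z carried 26.7 H3K27ac peaks in the hypoxia list and 5.63 in the normoxia list, and 13.7 and 12.4 H3K4me3 peaks in the hypoxia and normoxia lists, each lower than on all 28 autosomes. Named genes were sparse too, at 8.24 per Mb, against 8.56 or more on those 28 autosomes. A gene is named only where a peak is annotated to it, so counts per named gene depend on the peaks themselves. Counted per 100 named genes, the hypoxia list held 325 H3K27ac Z peaks, within the range of 134 to 413 on the 28 autosomes. The normoxia list held 68.4, against 83.4 to 131 on the 28 autosomes. H3K4me3 stood at 167 in the hypoxia list and 150 in the normoxia list, with autosomes on both sides of each.

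W peaks, from the chromosome that females carry, were listed at both oxygen levels. The sex of the embryos is not given in the labels. H3K27ac had 16 W peaks in the hypoxia list and 10 in the normoxia list, a ratio of 1.60 (0.740 to 3.46) beside 4.75 on Z. H3K4me3 had 50 W peaks in the hypoxia list and 47 in the normoxia list, a ratio of 1.06 (0.716 to 1.58) beside 1.11 on Z. A different share of ZZ lenses among the H3K27ac pools of the 2 oxygen levels cannot be told apart from a difference with oxygen, and its part in the result was not tested.

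The wider H3K27ac gap on Z held within every annotation class of the table. Within 1 kb of a transcription start the Z ratio was 2.98 (2.44 to 3.64), against 1.86, 2.02 and 2.06 on chromosomes 3, 4 and 5. It was 5.73 (4.39 to 7.48) at 1 to 5 kb from a start, against 2.75 to 3.32 on those chromosomes, and 5.23 (4.36 to 6.26) in introns, against 3.17 to 3.42. In exons and UTRs, where Z had 167 hypoxia and 24 normoxia peaks, the ratio was 6.96 (4.55 to 10.6), against 3.86 to 5.10, with intervals that overlapped. The least difference was in intergenic and downstream sequence, where Z gave 5.14 (4.19 to 6.31) and the others 4.08 to 4.19, again with overlapping intervals. Weighted to the class mix of Z, the Z ratio was 1.51 times that of chromosomes 3, 4 and 5 together, against 1.5 times without the weights. H3K4me3 ratios within classes ran between 1.04 and 1.52 on Z and between 0.933 and 1.41 on the other 3 chromosomes.

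**Figure D2:**
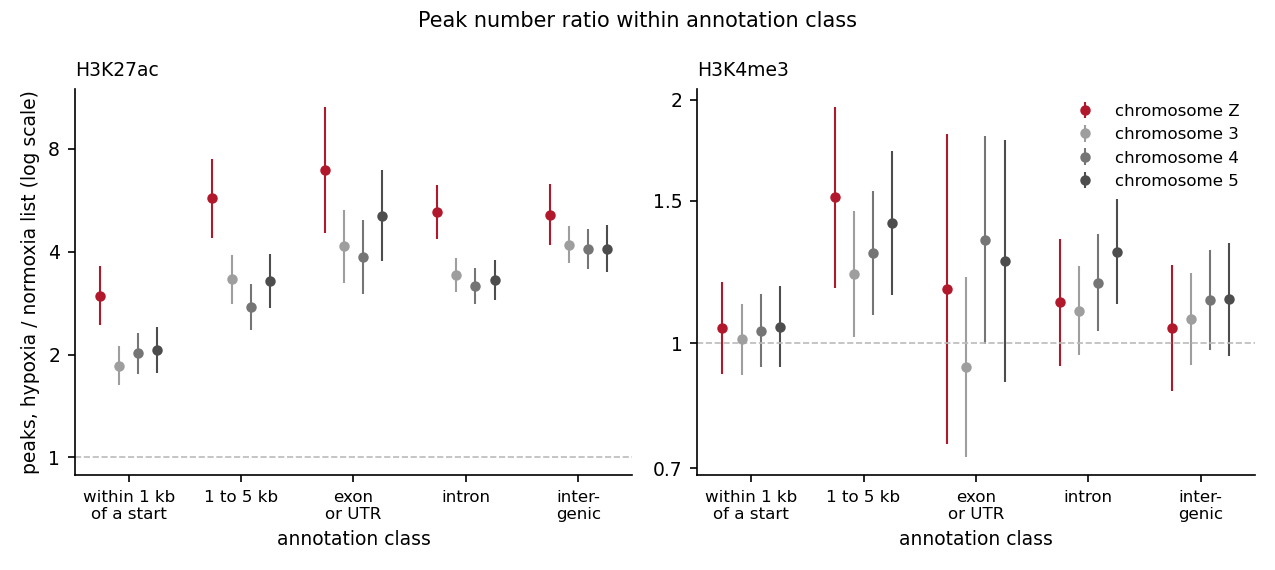
Hypoxia over normoxia peak number (log scale) within each annotation class for Z (red) and chromosomes 3, 4 and 5 (greys); bars are 95% Wilson intervals. For H3K27ac, Z is above the other 3 chromosomes in all 5 classes, between 2.98 and 6.96, while for H3K4me3 the chromosomes overlap.

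The class mix itself was within a few percentage points of that on chromosomes 3, 4 and 5. Of Z H3K27ac peaks, 17.2% lay within 1 kb of a start in the hypoxia list and 27.4% in the normoxia list, against 16.1% and 25.9% on chromosomes 3, 4 and 5. Introns held 33.3% in the hypoxia list and 30.2% in the normoxia list, against 30.5% and 29.3% on those chromosomes. Intergenic and downstream sequence held 25.5% (23.7 to 27.3%) in the hypoxia list, against 29.2% (28.3 to 30.0%), with intervals that did not overlap. In the normoxia list it held 23.5%, against 22.4%. H3K4me3 lay within 1 kb of a start in 40.2% of hypoxia peaks and 42.8% of normoxia peaks, against 36.5% and 39.5% on chromosomes 3, 4 and 5. Z peaks of H3K27ac were slightly narrow. Their median width was 524.5 bp in the hypoxia list and 468 bp in the normoxia list, against 566 and 525 bp on chromosomes 3, 4 and 5 at the class mix of Z. Z peaks of H3K4me3 had medians of 1143.5 and 1187 bp in the hypoxia and normoxia lists, against 962 and 1047 bp. Within 1 kb of a start they were not wider, with 2218 and 2021 bp on Z in the hypoxia and normoxia lists, against 2273 and 2146 bp. At 1 to 5 kb from a start they had 574.5 and 553 bp, against 558 and 645 bp. They were wider in introns, with 519 and 585 bp, against 473.5 and 519 bp. In exons and UTRs, with 42 and 36 Z peaks, they had 1178.5 and 1931.5 bp, against 898 and 967 bp. In intergenic sequence outside the array of peaks described below they had 508 and 571.5 bp, against 516 and 566.5 bp.

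Most H3K27ac peaks of the hypoxia list on Z had no counterpart in the normoxia list. Of them, 1928 of 2198 (87.7%, 86.3 to 89.0%) overlapped no normoxia peak by even 1 bp, against 80.7% of the hypoxia list over all chromosomes and 81.5% on chromosomes 3, 4 and 5 (80.1 to 82.8% each). Of the 463 normoxia peaks on Z, 176 (38.0%, 33.7 to 42.5%) were in that list only, against 39.3% over all chromosomes and 38.5% on chromosomes 3, 4 and 5, a share near the background. Given that, the higher hypoxia-only share on Z largely restates the peak number ratio, 4.75 on Z and 3.16 on chromosomes 3, 4 and 5. It is not a separate result. For H3K4me3, 407 of 1128 hypoxia peaks (36.1%) were in that list only, against 41.2% over all chromosomes and 43.0% on chromosomes 3, 4 and 5. Of the 1017 normoxia peaks, 295 (29.0%) were, against 33.5% over all chromosomes and 35.9% on those 3. The shared share of H3K4me3 peaks was 4.86 percentage points higher on Z than on chromosomes 3, 4 and 5 at matched class mix in the hypoxia list and 5.59 points higher in the normoxia list. Without that array, these differences were 2.06 and 2.89 points.

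Promoters on Z carried H3K27ac in the hypoxia list about as often as elsewhere and in the normoxia list less often. Here a peak counts as a promoter peak if its tabulated distance to a start is at most 3000 bp. Of 424 Z genes with an H3K27ac promoter peak, 279 (65.8%, 61.2 to 70.2%) had it in the hypoxia list only, against 47.0% of such genes over all chromosomes and 47.9% on chromosomes 3, 4 and 5 (46.7 to 49.8% each). Another 136 (32.1%) had it in both lists, against 46.9% over all chromosomes, and 9 (2.12%) in the normoxia list only, against 6.04% over all chromosomes and 5.12% on chromosomes 3, 4 and 5. The normoxia-only share depends on the window. It was 4.76% on Z with a promoter window of 1000 bp, for which no value of other chromosomes is given here. For H3K4me3 the 497 Z genes with a promoter peak split into 31 in the hypoxia list only (6.24%), 455 in both (91.5%) and 11 in the normoxia list only (2.21%). Over all chromosomes these shares were 5.15%, 91.4% and 3.49%, and on chromosomes 3, 4 and 5 they were 4.98%, 91.4% and 3.64%.

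H3K4me3 gives a set of promoters that was not chosen by acetylation. Among the 455 Z genes with an H3K4me3 promoter in both lists, 360 (79.1%, 75.2 to 82.6%) had H3K27ac in the hypoxia list, against 78.2% of 2109 such genes on chromosomes 3, 4 and 5. In the normoxia list 137 (30.1%, 26.1 to 34.5%) had it, against 46.4%, 47.4% and 45.7% on those chromosomes. The difference was 16.5 percentage points lower on Z in normoxia (-16.5, interval -21.2 to -11.7) and 0.932 points higher in hypoxia (interval -3.20 to 5.06, which spans no difference). The same showed within classes of H3K4me3 promoter width. Where that width averaged 3000 bp or more, H3K27ac was in the hypoxia list at 91.8% of 159 Z genes, against 89.1 to 91.9% on chromosomes 3, 4 and 5, and in the normoxia list at 44.0%, against 62.2 to 63.0%. From 1500 bp to under 3000 bp the normoxia share was 28.8% of 184 Z genes, against 44.4 to 49.2%, and under 1500 bp it was 11.8% of 110 Z genes, against 21.7 to 25.1%.

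**Figure D3:**
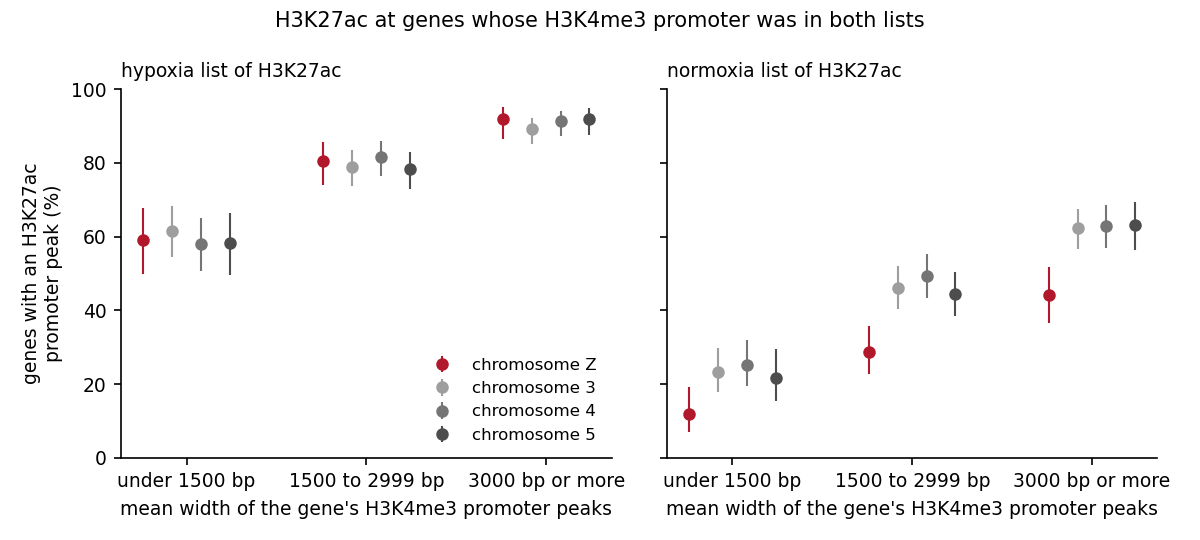
Share of promoters carrying H3K27ac in hypoxia (left) and in normoxia (right), among genes whose H3K4me3 promoter was in both lists, by mean H3K4me3 promoter width; points are chromosomes Z (red), 3, 4 and 5 (greys), with 95% Wilson intervals. Z lies with the others in hypoxia, at 59.1 to 91.8%, and below all 3 in normoxia, at 11.8 to 44.0%.

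The low normoxia share was found in each of the 8 Z stretches that could be counted. In the 8 stretches of 10 Mb along Z with at least 20 of these promoters, the share with normoxia H3K27ac lay between 20.9 and 37.3%, with a median of 29.5%. In 27 such stretches of chromosomes 3, 4 and 5 it lay between 25 and 60%, with a median of 47.1%, and 1 of them was at or under the highest Z value. In the hypoxia list the medians were 79.1% on Z and 79.7% on the others. The peak number ratio of H3K27ac over the 8 Z stretches with at least 20 normoxia peaks was between 3.46 (30 to 40 Mb, 256 hypoxia and 74 normoxia peaks) and 7.43 (10 to 20 Mb, 297 and 40 peaks), with a median of 5.02. On chromosomes 3, 4 and 5 it was between 1.77 and 4.56, and 9 of 27 stretches exceeded the lowest Z value. H3K4me3 gave 0.984 to 1.20 on Z and 0.917 to 1.29 on the others.

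Seen from the other side, H3K4me3 peaks of the normoxia list on Z overlapped an H3K27ac peak of the same oxygen level in 19.6% of cases (17.2 to 22.1%), against 27.7 to 28.3% on chromosomes 3, 4 and 5. In the hypoxia list the share was 51.5%, against 51.3 to 52.5%. Where a Z gene had an H3K27ac promoter peak of its own in both lists (131 genes), the peak was broad in hypoxia, with a median of 1260 bp in the hypoxia list and 500 bp in the normoxia list. The median log2 ratio of widths was 1.41, against 1.13, 1.05 and 0.79 on chromosomes 3, 4 and 5. The wider peak was in hypoxia at 85.5% of the Z genes, against 78.9, 75.5 and 76.6% on those chromosomes and 75.1% over all autosomes. For H3K4me3 the median log2 ratio was 0.13 on Z over 453 genes and 0.11 on chromosomes 3, 4 and 5. Width is an extent, not a strength, since the table holds no signal.

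Among the 279 Z promoters with H3K27ac in the hypoxia list only, the widest peak lay over the start of SRP19. This gene encodes a subunit of the signal recognition particle that targets proteins to the endoplasmic reticulum, and its peak spanned 3734 bp at chrZ:46099243-46102976. INIP, of a complex that binds single-stranded DNA, followed with 3352 bp, FAM172A with 2784 bp and POLR1E, a subunit of RNA polymerase I, with 2701 bp. RPS23, a ribosomal protein gene, had 2670 bp and CEP120, a centriole gene, 2570 bp. The H3K4me3 promoters of SRP19 (2934 bp in hypoxia, 2472 bp in normoxia) and INIP (1518 and 1748 bp) were in both lists.

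The 9 promoters with H3K27ac in the normoxia list only had peaks of at most 645 bp. NXNL2, a thioredoxin-like gene known from photoreceptors, had 645 bp at chrZ:43280132-43280776, SLC25A51, a mitochondrial NAD carrier, 634 bp, and DMXL1, a partner of the vacuolar proton pump, 613 bp. STARD4, a cholesterol transfer protein gene, had 362 bp, TRIM14 352 bp and UHRF2, a chromatin-binding ubiquitin ligase gene, 280 bp. These 6 are the widest of 9, whereas the 6 hypoxia-only peaks named above are the widest of 279. Their widths therefore cannot be compared. Among all Z peaks of H3K27ac, at promoters or elsewhere, those in the hypoxia list only had a median width of 461.5 bp. Those in the normoxia list only had a median of 349 bp.

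Of the promoters with H3K27ac in both lists, several were wide in hypoxia and small in normoxia. Those named here have the widest hypoxia peaks, a choice that by itself favours a smaller normoxia peak. Over all 131 Z genes with a promoter peak of their own in each list, the medians were 1260 bp in hypoxia and 500 bp in normoxia. ZNF532, a zinc finger gene with copies on Z and W, had 6000 bp in hypoxia (chrZ:851229-857228) and 803 bp in normoxia. TMEM171 had 5884 bp in hypoxia and 419 bp in normoxia, and GLRX, the glutaredoxin that removes glutathione from oxidised proteins, had 5734 bp in hypoxia and 671 bp in normoxia. ADAMTS6, a secreted metalloprotease gene, had 4407 bp in hypoxia and 1085 bp in normoxia. RICTOR, the defining subunit of mTOR complex 2, was wide at both levels, with 5050 bp in hypoxia and 4079 bp in normoxia. So was a single peak over the starts of GBA2, a glucosylceramidase gene, and RGP1, with 4125 bp in hypoxia and 2989 bp in normoxia.

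H3K4me3 formed broad domains at several Z promoters, in both lists. RHOBTB3 had 23464 bp in hypoxia (chrZ:57578597-57602060), the widest Z peak of any list, and 14247 bp in normoxia. ST8SIA4, a polysialyltransferase gene, had 16150 bp in hypoxia and 5641 bp in normoxia. Further normoxia peaks of 12771 and 15145 bp lay downstream of its start, the narrower of them overlapping the same hypoxia peak. NREP had 12364 bp in hypoxia and 10242 bp in normoxia, and the ubiquitin-conjugating enzyme gene UBE2R2 had 11895 bp in hypoxia and 8995 bp in normoxia. TNFAIP8 had 10848 and 8630 bp in hypoxia and normoxia, and CAST, which encodes the calpain inhibitor calpastatin, had 10560 bp in hypoxia and 3426 bp in normoxia. These genes were taken by hypoxia width, which favours a narrower normoxia peak. ENC1, left out by that choice, had a normoxia peak of 12112 bp over its start. Over 453 Z genes with an H3K4me3 promoter peak in each list, the medians were 2424 bp in hypoxia and 2224 bp in normoxia. Broad H3K4me3 also lay away from starts, in an intron by SLC46A2 (18657 bp in hypoxia, 15612 bp in normoxia) and over exons by TARS, a tRNA ligase gene (16605 and 16582 bp in hypoxia and normoxia). Peaks of at least 5000 bp made up 6.65% of the Z hypoxia list and 5.41% of the Z normoxia list, against 5.56 to 7.31% and 5.14 to 6.90% on chromosomes 3, 4 and 5.

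Few H3K4me3 promoters were in 1 list only, and those that were had mostly narrow peaks. ZNF532 had the widest, 3640 bp in the hypoxia list, at the same start where H3K27ac was broad in hypoxia. After it came the kinase gene NIM1K (1340 bp), SUSD1 (1058 bp), RUSC2 (1047 bp), PRXL2C (1046 bp) and the prolactin receptor gene PRLR (858 bp). In the normoxia list only were promoter peaks of the complement gene C7 (1195 bp), the growth factor gene FGF10 (1040 bp), the nuclear receptor gene RORB (881 bp), the serotonin receptor gene HTR1A (849 bp), CCDC125 (771 bp) and the neurotrophin receptor gene NTRK2 (764 bp).

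Along the chromosome, H3K27ac was densest in the window of 1 Mb that holds TRPM3 and KLF9. In 83 windows from the start of Z, the median was 25 H3K27ac peaks in the hypoxia list and 4 in the normoxia list, and 13 and 11 H3K4me3 peaks in the hypoxia and normoxia lists. The densest H3K27ac window, from 35 to 36 Mb, held 78 peaks in hypoxia and 37 in normoxia. TRPM3 encodes a cation channel, and KLF9 a zinc finger transcription factor that glucocorticoids induce in other tissues. Together they were annotated with 61 H3K27ac peaks over 88.7 kb in hypoxia and 36 over 35.3 kb in normoxia, with 28 of the 61 hypoxia peaks (45.9%) and 31 of the 36 normoxia peaks (86.1%) shared. On Z as a whole 12.3% of hypoxia and 62.0% of normoxia peaks were. The window was chosen for its many peaks in both lists, and dense peaks overlap by 1 bp more readily. The higher shared shares are therefore not a result separate from that density. This locus also held the widest hypoxia-only H3K27ac peak outside promoters, 6809 bp in an intron of TRPM3 (chrZ:35253619-35260427). The H3K27ac lay away from the starts. The KLF9 promoter had H3K27ac in neither list, and the TRPM3 promoter had 420 bp in the hypoxia list only, while both had H3K4me3 in both lists. Assignment to a gene is the table's nearest gene and not a measured contact.

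By the sum of both lists, the next H3K27ac windows were at 9 to 10 Mb (65 hypoxia and 21 normoxia peaks) and at 7 to 8 Mb (57 and 21), although the windows at 20 to 21 Mb (64 and 12) and 71 to 72 Mb (61 and 16) held more hypoxia peaks than the last. At 9 to 10 Mb lay PDZD2, a PDZ domain gene (16 hypoxia and 3 normoxia peaks), SUB1, a transcription coactivator gene (9 and 4), and CA9, the carbonic anhydrase gene known as a target of HIF (7 and 3). At 7 to 8 Mb lay UBE2R2 (11 hypoxia and 8 normoxia peaks), the interferon gene IFNW1 (7 and 3), the tubulin modification gene TPGS2 (5 and 4) and the kinesin gene KIF24 (4 and 1). Outside promoters the widest hypoxia-only peaks after TRPM3 were at SETBP1 (3356 bp) and KCMF1 (3110 bp), and the widest normoxia-only peaks at IFNW1 (1577 bp), KLF9 (1559 bp) and the ceramidase gene ACER2 (1502 bp).

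The 2 windows from 74 to 76 Mb held no peak of any list. The largest stretch without a peak ran from 73547117 to 76371682 and spanned 2825 kb, and the next spanned 1647 kb. The windows at 76 to 77 and 77 to 78 Mb held 1 peak each, of H3K4me3 in the hypoxia list.

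H3K4me3 was densest in the window from 27 to 28 Mb, with 80 peaks in hypoxia and 76 in normoxia. The sum of 156 exceeded the densest window of chromosomes 3, 4 and 5 (122, 123 and 127) and of chromosomes 1 and 2 (119 and 111). Most of these peaks formed an array between the glutamate transporter gene SLC1A1 and CDC37L1, a co-chaperone gene, at chrZ:27141993-27398570, over 257 kb. It held 66 H3K4me3 peaks in hypoxia and 63 in normoxia, with median widths of 1327 and 1302 bp. Their centres were spaced by a median of 3083 bp in hypoxia and 2980 bp in normoxia. In number, median width and spacing of H3K4me3 peaks the array was thus similar at both oxygen levels. Of its H3K4me3 peaks, 58 in the hypoxia list (87.9%, 77.9 to 93.7%) and 56 in the normoxia list (88.9%, 78.8 to 94.5%) were shared. These shares say little about matching positions. H3K4me3 peaks covered 41.3% of the array in hypoxia and 40.1% in normoxia, so many overlaps of 1 bp would arise from density alone. A stricter overlap was not run for the array.

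**Figure D4:**
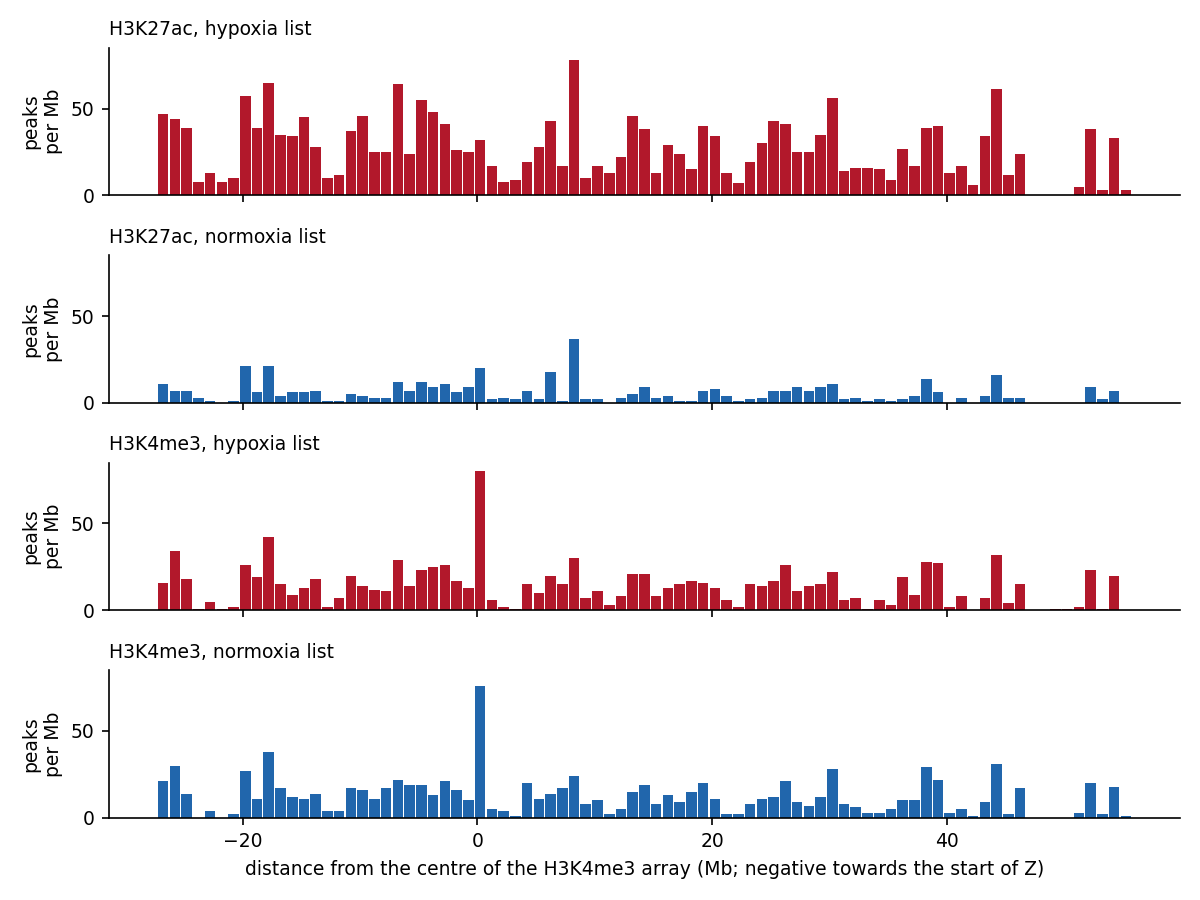
Peaks per window of 1 Mb along Z in each of the 4 lists, against distance from the centre of the H3K4me3 array (hypoxia red, normoxia blue). The array stands out in both H3K4me3 lists, with 80 and 76 peaks, and the TRPM3 and KLF9 window in both H3K27ac lists, with 78 and 37.

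The array also held H3K27ac, with 10 peaks over 6.14 kb in hypoxia and 16 over 9.53 kb in normoxia, of which 2 in each list were shared. Per Mb these were 39.0 in hypoxia and 62.4 in normoxia, against 26.7 and 5.63 on Z as a whole, so the normoxia list was the denser one here. Of the 66 hypoxia H3K4me3 peaks, 10 overlapped a hypoxia H3K27ac peak, and of the 63 normoxia ones, 13 overlapped a normoxia H3K27ac peak. The array made up 27.4% of all intergenic H3K4me3 peaks of the Z hypoxia list and 27.3% of those of the normoxia list. Outside it, intergenic H3K4me3 peaks on Z were shared in 47.4% (40.2 to 54.8%) and 49.4% (41.9 to 56.9%) of the hypoxia and normoxia lists, against 38.0% and 42.4% on chromosomes 3, 4 and 5. The RefSeq annotation of a later assembly, GRCg7b, places 7 long noncoding RNA models and 1 pseudogene between SLC1A1 and CDC37L1. As background, the chicken Z carries a male hypermethylated region in the neighbourhood of the sex-determining gene DMRT1, a repeat that is methylated and silent in ZZ males and transcribed into noncoding RNA in ZW females. Whether the array is that region was not tested.

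**Figure D5:**
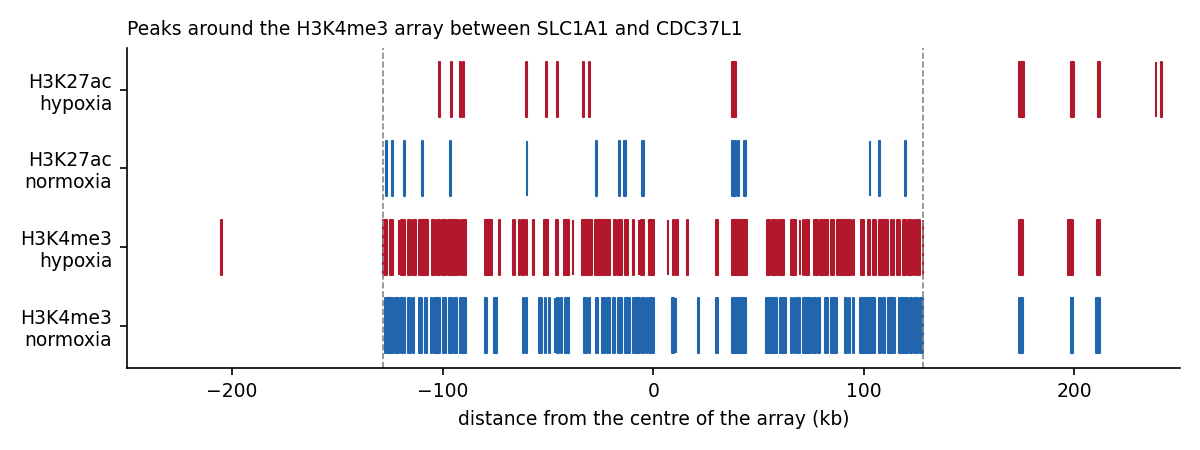
Peaks of the 4 lists around the H3K4me3 array, drawn to scale as bars against distance from its centre (kb); dashed lines mark its ends. H3K4me3 has 66 and 63 peaks inside in the hypoxia and normoxia lists, and H3K27ac has 10 and 16.

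Gene groups on Z are given by their promoter state, beside the Z-wide H3K27ac split of 279 in hypoxia only, 136 in both lists and 9 in normoxia only. The 65.8% in hypoxia only is a share of Z genes with an H3K27ac promoter peak. A group's share is to be read against it over such genes only. They numbered 11 each for hypoxia response and for chromatin and transcription, and 15 for mitochondria and energy. Lipid and sterol genes gave 10, proteostasis and traffic 10, and signalling 16. Transcription factors gave 6, and cytoskeleton and adhesion 9.

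Of 22 genes listed under hypoxia response, 15 had a peak on Z. H3K27ac promoters were in hypoxia only at 6, in both lists at 5 and absent at 4, and H3K4me3 promoters were in both lists at 14. The list was counted on Z only, so a listed gene without a Z peak may lie on another chromosome. It also holds genes not chiefly known for that response, such as RPS6, MLLT3, MTAP, CDKN2B and HSD17B4. The counts therefore describe the list and not the response. VLDLR, the very low density lipoprotein receptor and a known HIF target, had 3429 bp in hypoxia and 336 bp in normoxia, and the lipid droplet gene PLIN2 had 1099 bp in hypoxia and 372 bp in normoxia. CA9 had the wider promoter peak in normoxia, with 1511 bp in hypoxia and 2197 bp in normoxia. HSD17B4, a peroxisomal enzyme gene, had 1169 bp in hypoxia and 1259 bp in normoxia. KDM4C, a histone demethylase gene that HIF induces in mammals, and SMARCA2, an ATPase of the SWI/SNF remodelling complex, had small promoter peaks in hypoxia only, of 196 and 257 bp.

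Of 12 chromatin and transcription genes on Z, 10 had H3K27ac promoters in hypoxia only, 1 in normoxia only, 1 had none, and 0 were in both lists. MIER3, a corepressor gene, had 2014 bp in hypoxia, HNRNPK, an RNA-binding protein gene, 1933 bp, the chromatin remodeler gene CHD1Z 1534 bp, the kinase gene CDK7 1252 bp and the histone reader gene SPIN1Z 894 bp. PSIP1, first described as lens epithelium-derived growth factor, was the exception, with 171 bp in normoxia only. Their H3K4me3 promoters were in both lists at 11 of 12, the exception being SETBP1, whose peaks of either mark lay outside its promoter.

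Of 16 mitochondrial and energy genes, 10 had H3K27ac promoters in hypoxia only, 5 in both lists and 1 in neither, with H3K4me3 in both lists at 16. NDUFS4, a subunit of respiratory complex I, had 1805 bp in hypoxia only, AK3, a matrix adenylate kinase gene, 1587 bp, and OXCT1, of ketone body use, 1159 bp. COX7C, a cytochrome c oxidase subunit, had 1537 bp in hypoxia and 368 bp in normoxia. MRPS30, a mitochondrial ribosome gene, had 2149 bp in hypoxia and 500 bp in normoxia, whereas ALDH7A1 had 244 bp in hypoxia and 402 bp in normoxia.

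Among 11 lipid and sterol genes, 5 promoters had H3K27ac in hypoxia only, 5 in both lists and 1 in neither. ACAA2, a mitochondrial thiolase gene, had 1169 bp in hypoxia only, and ELOVL7, a fatty acid elongase gene, had 2038 bp in hypoxia and 233 bp in normoxia. HMGCS1, an enzyme gene of sterol synthesis, had 886 bp in hypoxia and 791 bp in normoxia. Proteostasis and traffic counted 13 genes, of which 6 were in hypoxia only, 4 in both lists and 3 in neither. UBQLN1, a ubiquitin receptor gene, had 1543 bp in hypoxia only, GOLPH3, a Golgi vesicle gene, 2178 bp in hypoxia and 188 bp in normoxia, and TMED7, a cargo receptor gene, 2088 bp in hypoxia and 1256 bp in normoxia.

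Signalling by TGF-beta, SMADs and growth factors was represented by 19 Z gene entries, of which 10 had H3K27ac promoters in hypoxia only, 6 in both lists and 3 in neither. OSMR was entered under separate gene identifiers, so it counts both in hypoxia only and in neither. IL6ST, the shared receptor subunit of the interleukin 6 family, had 1552 bp in hypoxia only, LIFR, the leukemia inhibitory factor receptor, 1253 bp, and FST, the activin inhibitor follistatin, 573 bp. FGF10, a ligand with H3K4me3 at its start in normoxia only, had 547 bp of H3K27ac in hypoxia only. PTCH1, the hedgehog receptor, had 2162 bp in hypoxia and 391 bp in normoxia, and MAP3K1, a kinase of the MAPK cascade, 3794 bp in hypoxia and 539 bp in normoxia. Among the SMADs, SMAD7, the inhibitory member, had 176 bp in hypoxia only, and SMAD2Z, a signal transducer, had 694 bp in hypoxia and 574 bp in normoxia.

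Among 13 transcription factor genes on Z, 6 had an H3K27ac promoter peak, beside 424 of 677 Z genes, 5 in hypoxia only and 1 in both lists, and 8 had H3K4me3 promoters in both lists. RFX3, of ciliary gene control, had 3269 bp in hypoxia and 1165 bp in normoxia. NR2F1, a nuclear receptor gene, had 7 H3K27ac peaks in hypoxia, 0 in normoxia and none at its promoter, and NFIB had 451 bp at its promoter in hypoxia only. GLIS3 had 1 H3K27ac peak, in the normoxia list (0.644 kb). Of 16 genes listed under cytoskeleton and adhesion, which include the cytokine receptor gene CNTFR and the transcription factor gene CREB3, 7 promoters were in hypoxia only, 2 in both lists and 7 in neither. CNTFR, the ciliary neurotrophic factor receptor, had 980 bp, CREB3 726 bp, ITGA2, an integrin, 1689 bp and FRMD3 1344 bp, all in hypoxia only. TPM2, a tropomyosin gene, had 1467 bp in hypoxia and 257 bp in normoxia, and MAP1B, a microtubule-associated protein gene, 759 bp in hypoxia and 877 bp in normoxia.

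Genes known to have both a Z and a W copy were listed under 25 symbols, and 20 were matched to a gene with a peak on Z. Matching was by symbol, so CZH18ORF25, with 1158 bp of H3K27ac at its promoter in hypoxia only, was not counted. H3K27ac promoters were in hypoxia only at 9, in both lists at 10 and in neither at 1, so 9 of 19 with such a peak were in hypoxia only, beside 279 of 424 on Z as a whole. UBE2R2 had the most H3K27ac, 11 peaks over 16.97 kb in hypoxia and 8 over 4.44 kb in normoxia. SUB1 had a promoter peak of 3333 bp in hypoxia and 192 bp in normoxia, KCMF1, a ubiquitin ligase gene, 1976 bp in hypoxia only, and TNPO1, a nuclear import gene, 1820 bp in hypoxia and 768 bp in normoxia. The ATP synthase gene ATP5A1Z had 1476 bp in hypoxia and 521 bp in normoxia.

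The table names the W partner of some of these. H3K4me3 lay at the start of ATP5A1W (1126 bp in hypoxia, 1389 bp in normoxia), SMAD2W (2792 and 3756 bp), MIER3L (1615 and 3262 bp), HNRNPKL (3284 and 3323 bp) and UBE2R2L (2316 and 1742 bp). Of these 5 W copies, 1 had an H3K27ac promoter peak, HNRNPKL, with 763 bp in the hypoxia list, whereas each of the 5 Z copies had one in the hypoxia list. Over all W genes, H3K27ac promoters were in hypoxia only at 3, in both lists at 5 and in normoxia only at 2 of 10. Those in both lists include HINTW (1904 bp in hypoxia, 2150 bp in normoxia), NIPBLL (1119 and 849 bp) and TERAL2 (568 and 797 bp). ZFRL1 had an H3K4me3 promoter in both lists and no H3K27ac promoter peak. The 5 copies above were matched by name and do not stand for all W genes. H3K4me3 promoters were in both lists at 21 of 23. Reads from near-identical Z and W copies may be shared or split between them, so the values of these pairs are uncertain.

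The sex determination list had 3 genes with a Z peak. FST and PRLR had H3K27ac promoters in hypoxia only, and DMRT2 had none and 714 bp of H3K4me3 in the hypoxia list only. Of 9 lens fiber markers on any chromosome, 8 had a promoter peak of H3K27ac, 7 in both lists and 1 in hypoxia only. Over all chromosomes, 46.9% of genes with an H3K27ac promoter peak had it in both lists. Such peaks were common, on Z at 424 of 677 genes, so this count of few markers is a weak check of the tissue label. Markers of other cells on Z were mixed. The pigment cell genes TYRP1, SLC45A2 and MLANA had no promoter peak of either mark, although TYRP1 had 2 H3K27ac peaks elsewhere in hypoxia (3.70 kb) and 1 in normoxia (0.782 kb). The 4 endothelium and blood genes listed were annotated with no Z peak. They were counted on Z only and were not checked to lie there, so this does not show that such cells were absent. Of 6 retina and neuron genes, TRPM3 and MAP1B among them, 4 had H3K27ac promoters, 2 in hypoxia only and 2 in both lists. Of 5 mesenchyme and matrix genes 2 did, both in hypoxia only. These counts stand beside the same 424 of 677 Z genes and are too small to be told from that share. The part of other cells in the Z lists was not tested.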

How the data were processed

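Lens fiber cell CUT&RUN peaks were taken from 1 deposited table with 124414 lines and 4 lists, 1 per mark and oxygen level. Positions, widths and distances to a transcription start are the authors' values in bp, per the file headers, with no score or count. STAR, DESeq2, MACS2 and ChIPseeker, and the build galGal6, are named in the submitters' processing notes without versions or roles. Not given in the sources used here are how peaks were called, pooled and thresholded. Read depth is unknown.

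Each interval was counted once per list, with its annotation nearest a start, using Python 3.11.15 and pandas 2.3.3. Overlaps of at least 1 bp were checked against bedtools 2.31.1 and tested on simulated intervals. A promoter was put in both lists if each list had a promoter peak for the gene, or if the promoter peak of one list overlapped any interval of the other. Shares carry Wilson 95% intervals (scipy 1.17.1), for counting error only. Chromosome length was taken as the end of the last peak. With 1 list per group, no p-value was computed.

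The chromosome, the gene lists and the comparisons were chosen with earlier results of these data known. Named genes are the 6 widest promoter peaks per mark and state, the widest peaks outside promoters, the leading genes of the densest windows and members of each list. Genes with a promoter in both lists were ranked by the width of the hypoxia peak. The comparison at H3K4me3 promoters, its width classes, the array and the stretches of promoters were chosen after seeing the data. No sequence is printed.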

Additional observations from a re-analysis of the deposited data

How the results depend on the processing

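The H3K27ac ratio of Z relative to chromosomes 3, 4 and 5 was 1.5 and stayed between 1.42 and 1.62 under every alternative run for it, and the H3K4me3 one was 0.993, with alternatives between 0.997 and 1.02. The normoxia shortfall of H3K27ac at H3K4me3 promoters stayed between -14.0 and -16.8 percentage points, under alternatives chosen after seeing the data, as were the values without the array and the equal-list differences in shared share. The difference in the shared share of normoxia H3K27ac peaks changed sign, from 0.258 points to -5.14 with at least 50% overlap of both peaks, and the H3K4me3 relative ratio crossed 1 within its counting interval (0.905 to 1.09). The hypoxia difference at H3K4me3 promoters, 0.932 points, was -1.99 points with a promoter window of 1000 bp and -0.0781 points for peaks of at least 500 bp, both within its interval. The Z ratios themselves moved. For H3K27ac the ratio was 5.26 for peaks of at least 500 bp and 5.86 by covered length. It was 1.5 when the hypoxia list was cut to its 15511 widest peaks, as many as in the uncut normoxia list. With the H3K4me3 hypoxia list cut likewise, the H3K4me3 ratio of Z was 1.00. Over the genome this cut sets the ratio to 1, so a fall was fixed in advance.

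Shares of Z peaks in both lists depend on what counts as shared. With at least 50% overlap of both peaks, H3K27ac shares were 2.18% in hypoxia and 10.4% in normoxia, the differences from chromosomes 3, 4 and 5 were -2.74 points in hypoxia and -5.14 points in normoxia, and H3K4me3 shares were 45.6% and 50.5%. With gaps of up to 500 bp, they were 14.7% and 72.4% for H3K27ac and 67.3% and 74.5% for H3K4me3. Equal lists gave 29.3% and 49.0% for H3K27ac, with a difference of -10.1 points in hypoxia, and 69.7% for hypoxia H3K4me3. Peaks of at least 500 bp gave 76.0% and 79.7% for H3K4me3. Normoxia-only H3K27ac promoters on Z were 4.76% with a promoter window of 1000 bp and 2.12% with 3000 bp.

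Peak density per Mb on Z relative to chromosomes 3, 4 and 5 depends on the comparison. For H3K27ac hypoxia it was 0.650, and 0.915 per named gene, 0.713 against chromosome 3, 0.548 against chromosome 5, 0.589 against all autosomes and 0.607 for peaks of at least 500 bp. For H3K27ac normoxia it was 0.433, and in the same order 0.610, 0.485, 0.372, 0.359 and 0.386. For H3K4me3 hypoxia it was 0.641, then 0.903, 0.732, 0.518, 0.553 and 0.686, and for H3K4me3 normoxia 0.646, then 0.909, 0.701, 0.547 and 0.559. The cause of these movements was not tested.

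No paired analysis was possible because the table holds 1 list per mark and oxygen level and no value per library, which also leaves no replicate to omit. Depth, peak calling thresholds and the number of male and female embryos per pool are unknown, and a peak listed at one oxygen level alone is not shown to be absent at the other.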
